A study of Mus musculus with 4 samples.

Results

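The 9 genes described here encode cell-surface receptors through which circulating or locally released ligands set the tone of a blood vessel. They are the angiotensin receptor Agtr1a, the endothelin receptors Ednra and Ednrb, the alpha-1 adrenergic receptors Adra1b and Adra1d, the muscarinic receptors Chrm2 and Chrm3, and the natriuretic peptide receptors Npr1 and Npr3. They were chosen by name: the matrix rows that carry these 9 symbols, of 32285 genes measured, were followed in each library and in each cell class defined by marker genes.

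Angiotensin II, endothelin 1 and noradrenaline contract vascular smooth muscle through receptors that couple to Gq, which releases calcium from internal stores. Acetylcholine acting on Chrm3 of the endothelium, and endothelin acting on Ednrb there, release nitric oxide, which relaxes the muscle through soluble guanylate cyclase and cyclic GMP. Natriuretic peptides raise cyclic GMP directly through Npr1, while Npr3 takes the same peptides up and removes them.

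The nuclei came from aortic tissue of mice with a CA1 knock-in on an ApoE-/- background, and all 4 groups shared that genotype. CA1 is carbonic anhydrase 1, and mice that lack ApoE develop atherosclerosis. In the MTZ-simultaneous group mice ate high-fat food and received MTZ (methoxazolamide in the labels, described there as a CA1 inhibitor) at the same time. The MTZ-after group ate high-fat food and received MTZ once atherosclerosis was present, the high-fat group ate the food alone, and the untreated group had no treatment. The sources used here give no ages, doses, knock-in promoter or number of pooled animals. There was 1 library per group, so no difference could be set against variation between animals, no test was possible, and every interval is a 95% interval that covers counting error only.

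After filtering, 17720, 25846, 34975 and 20552 nuclei were kept in MTZ-simultaneous, MTZ-after, high-fat and untreated, with a median of 1417, 822, 951 and 2029 unique molecular identifiers (UMIs) per nucleus. Any 2 libraries shared between 119 and 376 cell barcodes. Clusters were named from marker genes, so "macrophage" below means macrophage-like, and 16 classes were found, of which 8 held at least 200 nuclei in every library. The libraries differed in the tissue around the vessel: adrenal-cortex nuclei numbered 4305 in MTZ-after and at most 3 in any other library. Adipocyte, adrenal, chromaffin, hepatocyte and neuron nuclei together made up 13.1% of MTZ-simultaneous, 40.3% of MTZ-after, 7.77% of high-fat and 22.9% of untreated. Smooth muscle made up 8.83%, 9.36%, 2.48% and 2.71%, and 35.4% of high-fat nuclei stayed unnamed, against 14.3% in MTZ-simultaneous, 11.9% in MTZ-after and 19.0% in untreated. Car1, the mouse gene of CA1, stood at 151, 63.6, 86.1 and 128 CPM over all kept nuclei (CPM, UMI counts scaled to the same total in each class and library), and Apoe at 10.9, 10.9, 8.87 and 9.59 CPM. Neither value checks a label, because the sources used here give neither the inserted sequence nor the deleted part of Apoe.

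The receptors fell into different cell classes. For each gene the leading class is the one with the highest CPM, averaged with equal weight over the 4 libraries, among the 8 large classes. It was smooth muscle for Agtr1a, Ednra and Adra1d, fibroblast for Adra1b, endothelium for Chrm2, Chrm3 and Npr1, macrophage for Ednrb and white adipocyte for Npr3. T or NK nuclei, which are not known for any of these receptors at a high level, served as the reading of free RNA and of reads shared between droplets. Their level is given beside each gene. The summed endothelial markers in T or NK nuclei were 2981, 3936, 3335 and 2399.9 CPM in MTZ-simultaneous, MTZ-after, high-fat and untreated. The summed T or NK markers in the same nuclei were 3135, 2260.4, 2129.9 and 4096 CPM. Ratios to T or NK nuclei are thus set against a level that holds endothelial RNA and differs by library. In sums over all nuclei, fewer cells of a type and less RNA per cell cannot be told apart.

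**Figure D1:**
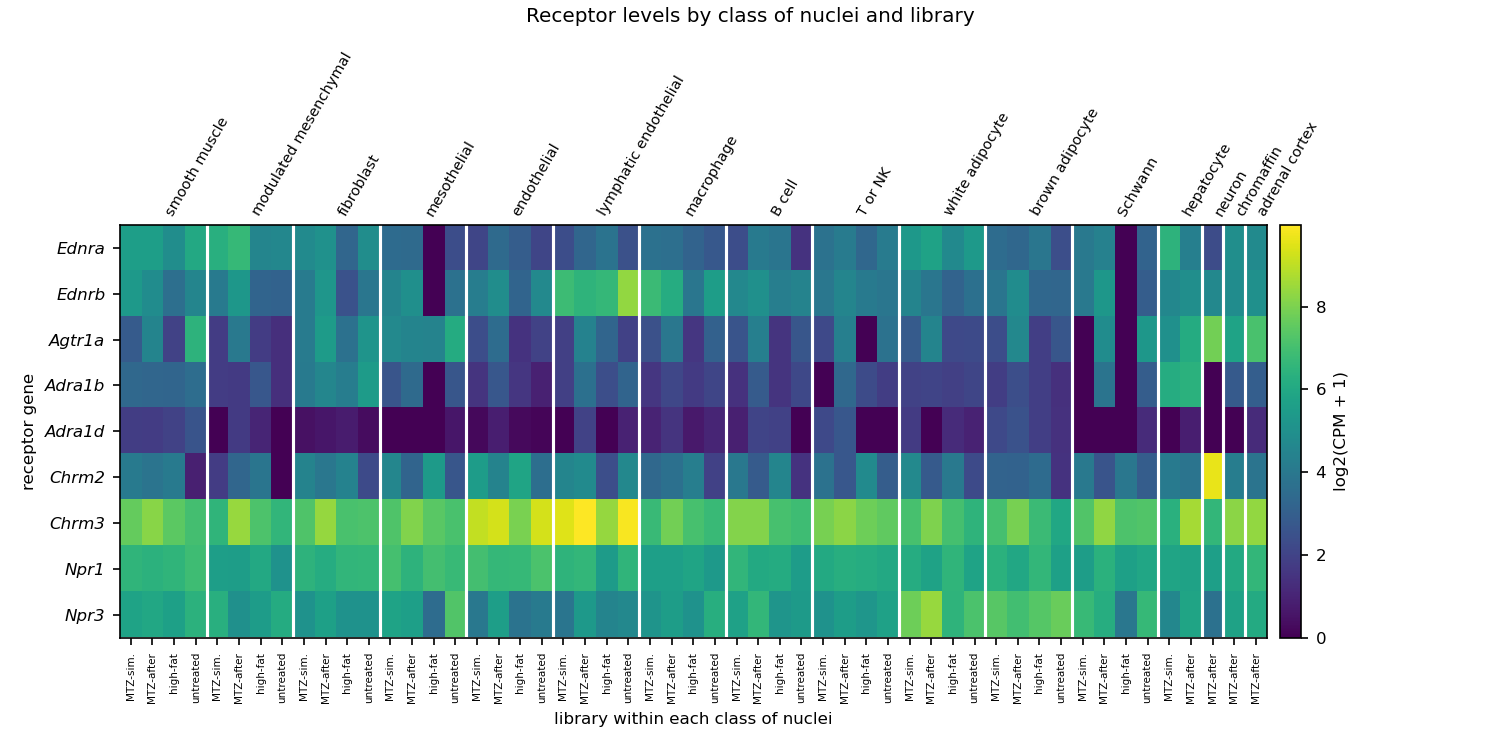
Level of the 9 receptor genes, as log2(CPM + 1), by cell class and library, with the libraries in the order MTZ-simultaneous, MTZ-after, high-fat and untreated. Chrm3 had a signal in every class, Ednrb was highest in untreated lymphatic endothelium (323 CPM) and Chrm2 in the MTZ-after neurons (797 CPM).

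Differences between libraries were read by a rule of size: a gene was called when its CPM differed at least 2-fold and its count in the higher library reached 50. Each comparison puts the high-fat library on 1 side, so the 3 comparisons are not independent of each other. In their leading classes, 1 receptor gene was called higher (Chrm2) and 5 were called lower (Agtr1a, Ednra, Ednrb, Adra1b and Chrm3) in high-fat against untreated. In MTZ-after against high-fat, 4 were called higher (Agtr1a, Ednrb, Chrm3 and Npr3) and 1 lower (Chrm2). In MTZ-simultaneous against high-fat, 3 were called higher (Ednrb, Chrm3 and Npr3) and 0 lower.

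The same rule over all genes gives the background for these counts. In high-fat against untreated it called 8.82% of genes tested in smooth muscle, 8.90% in fibroblasts, 8.46% in endothelium, 8.23% in macrophages and 17.7% in white adipocytes. In MTZ-after against high-fat the shares were 5.98%, 4.38%, 6.38%, 4.18% and 7.93% in the same order of classes. In MTZ-simultaneous against high-fat they were 5.93%, 3.87%, 5.45%, 4.34% and 5.34%. The 6, 5 and 3 calls among the 9 receptor genes are not like these shares. Each gene was read in a class picked by its level here, and the shares cover only genes with at least 50 counts. Receptors called in high-fat against untreated were 2 of 5 tested in smooth muscle, 4 of 7 in fibroblasts and 3 of 5 in endothelium. They were 4 of 7 in macrophages and 0 of 4 in white adipocytes. MTZ-after against high-fat gave 2 of 6, 4 of 6, 4 of 5, 1 of 5 and 2 of 3 in that order. MTZ-simultaneous against high-fat gave 1 of 5, 1 of 5, 2 of 5, 1 of 6 and 1 of 4. Nothing particular to the receptors is read from so few genes, which were chosen with earlier results of these data known.

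Over all kept nuclei, where the mix of classes also enters, the rule called 13.8%, 16.2% and 10.4% of genes in the 3 comparisons. Chrm2 was called higher in high-fat against untreated (ratio 4.65, 4.10 to 5.28), and Agtr1a (0.187), Ednrb (0.418) and Npr3 (0.370) were called lower. In MTZ-after against high-fat, Agtr1a (17.7), Ednrb (2.86), Adra1b (2.74) and Chrm3 (2.20) were called higher. In MTZ-simultaneous against high-fat, Agtr1a (3.69) and Ednrb (3.02) were called higher, and 0 members were called lower in either MTZ library.

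**Figure D2:**
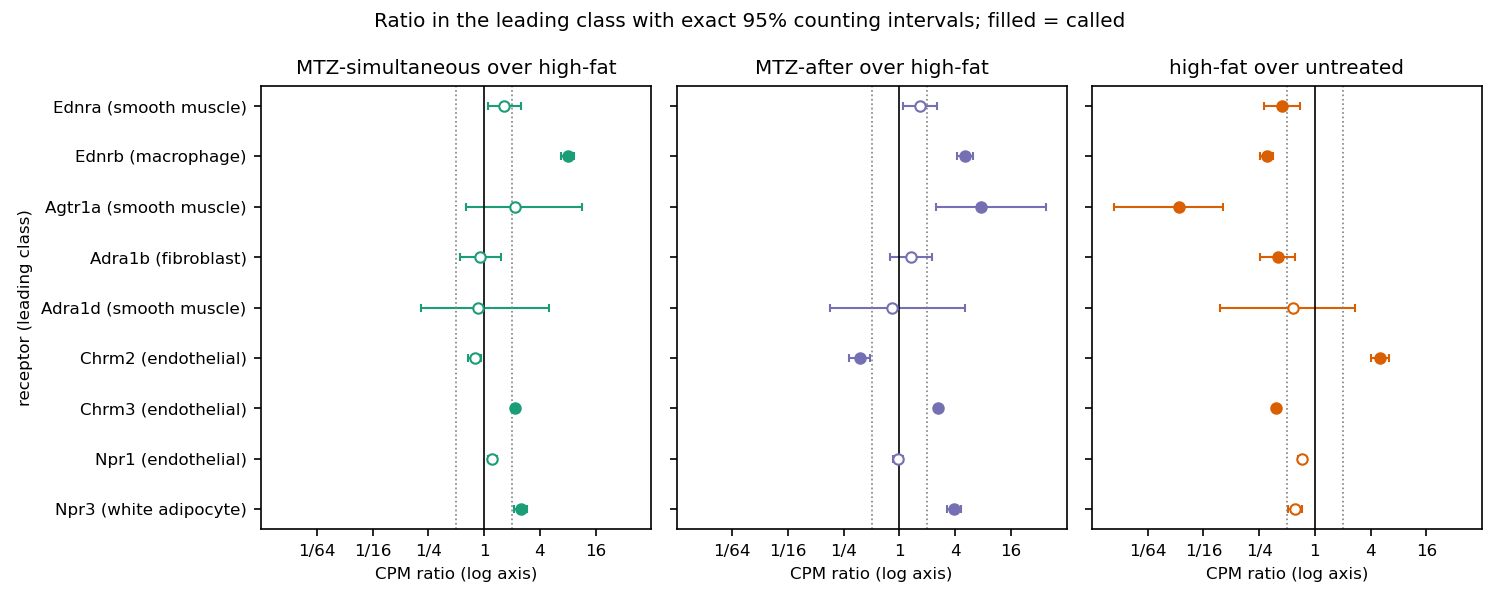
Ratio of CPM in the leading class of each receptor gene, on a log axis, with 95% counting intervals, for MTZ-simultaneous over high-fat, MTZ-after over high-fat and high-fat over untreated. Filled points were called, dotted lines mark a 2-fold difference, and Agtr1a in smooth muscle is the lowest point in high-fat over untreated (0.0337) and the highest in MTZ-after over high-fat (7.61).

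**Figure D3:**
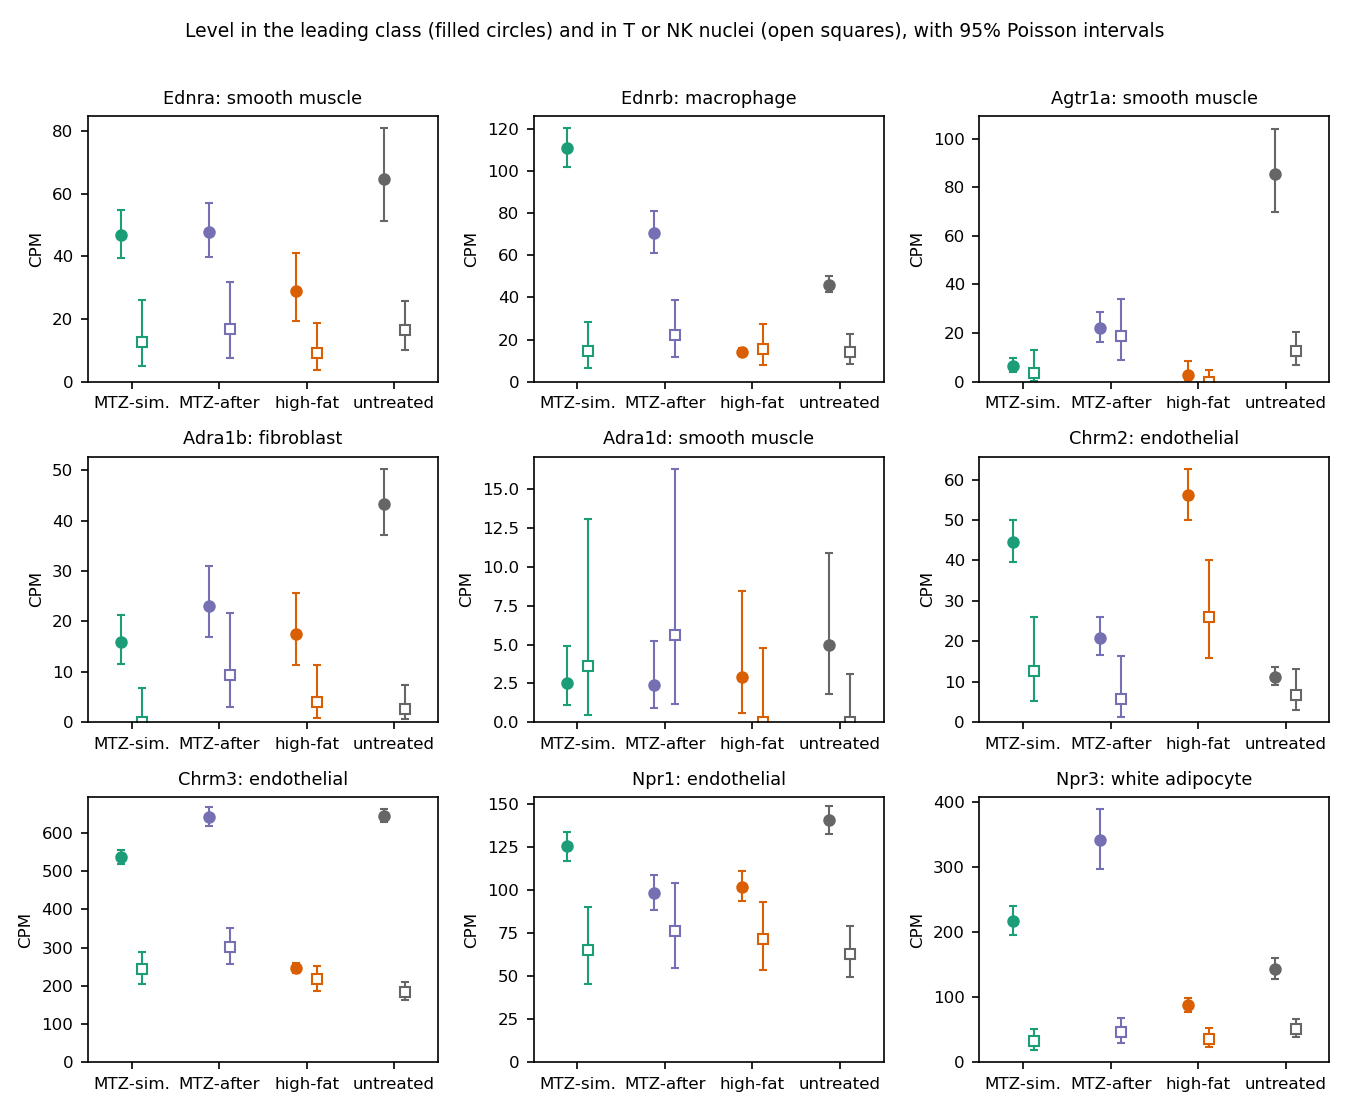
CPM of each receptor gene in its leading class (filled circles) and in T or NK nuclei (open squares) by library, with exact Poisson intervals. The circle of Ednrb in high-fat macrophages (13.9 CPM) lies at the level of the squares (14.1 to 22.3 CPM) and the circles of Adra1d overlap them, while Ednra stands above them in all 4 libraries.

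The endothelin receptors form a pair with different tissue homes, and their promoters are shown because the 2 genes answer the same ligand but led in different classes here. Ednra lies on chr8:77663031-77724464 on the minus strand (mm10, 61.4 kb) and Ednrb on chr14:103814625-103844402 on the minus strand (29.8 kb). The 250 bases before the RefSeq start (GRCm38.p6) span chr8:77724453-77724702 for Ednra and chr14:103843702-103843951 for Ednrb, both on the minus strand, written 5′ to 3′, with the CCAAT box (CCAAT or, on the other strand, ATTGG) in capitals.
Ednra: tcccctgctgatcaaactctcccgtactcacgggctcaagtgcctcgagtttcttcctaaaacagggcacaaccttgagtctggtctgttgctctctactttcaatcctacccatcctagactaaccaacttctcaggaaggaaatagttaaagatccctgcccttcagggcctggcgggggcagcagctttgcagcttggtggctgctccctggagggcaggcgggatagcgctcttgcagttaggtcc
Ednrb: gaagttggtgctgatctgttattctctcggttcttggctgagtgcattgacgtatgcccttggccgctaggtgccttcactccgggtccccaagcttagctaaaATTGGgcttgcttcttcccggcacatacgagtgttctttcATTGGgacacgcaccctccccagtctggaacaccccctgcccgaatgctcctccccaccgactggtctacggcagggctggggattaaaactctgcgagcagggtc
By GENCODE vM21 the Ednrb stretch lies inside the span of the gene, in an intron of its longest transcript and just before the start of shorter ones. The Ednra stretch held 0 matches and the Ednrb stretch 2, and 33.8% of 32851 RefSeq promoter stretches of this length held at least 1. Their GC content was 54.8% and 56.8%, with 6 and 11 CpG pairs, against a median GC content of 52.4% over all promoters in the table. Of the 9 receptor genes, 7 had a promoter in the table. A match of letters is a description and says nothing of which factor binds.

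Ednra, the receptor through which endothelin 1 contracts smooth muscle, was highest in smooth muscle among the 8 large classes. In smooth muscle it stood at 46.7 CPM (150 counts, 39.6 to 54.9) in MTZ-simultaneous, 47.8 CPM (120 counts, 39.7 to 57.2) in MTZ-after, 28.8 CPM (30 counts, 19.4 to 41.1) in high-fat and 64.8 CPM (78 counts, 51.3 to 80.9) in untreated. T or NK nuclei held 12.7, 16.8, 9.11 and 16.6 CPM, so smooth muscle was 2.85 to 3.90 times higher in all 4 libraries. High-fat was the lowest library in smooth muscle, and both MTZ libraries lay between it and untreated. The ratio of high-fat over untreated was 0.444 (0.281 to 0.685), a call. The summed level of the 11 smooth muscle markers in the class moved in the same direction, at 8789 CPM in MTZ-simultaneous, 5373 CPM in MTZ-after, 4345 CPM in high-fat and 8494 CPM in untreated, with 0 of the 11 undetected in any library, and its part in the Ednra level was not tested. MTZ-after over high-fat gave 1.66 (1.10 to 2.57) and MTZ-simultaneous over high-fat 1.62 (1.09 to 2.49), neither of which was called. The high-fat call is not firm: with the stricter filter of at least 500 genes and at most 5% mitochondrial counts per nucleus it was 0.941, with libraries centred before clustering 0.777 and with nuclei weighted equally 0.574.

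In fibroblasts too, Ednra was lowest in high-fat, with a larger gap. It stood at 26.3, 32.0, 8.76 and 28.9 CPM in MTZ-simultaneous, MTZ-after, high-fat and untreated. High-fat over untreated was 0.303 (0.157 to 0.539), MTZ-after over high-fat 3.66 (1.99 to 7.25) and MTZ-simultaneous over high-fat 3.01 (1.65 to 5.92), all of them calls, although the high-fat level rests on 13 counts and lies at the T or NK level of that library. The modulated mesenchymal class had 3 of its 8 markers enriched, with Tnfrsf11b among its leading genes. In this class Ednra stood at 77.6 CPM (63 counts), 101 CPM (46 counts), 22.1 CPM (129 counts) and 23.3 CPM (15 counts). There the MTZ libraries were high and the other 2 low, with ranges that did not overlap. MTZ-simultaneous over high-fat was 3.50 (2.55 to 4.77), and MTZ-after over high-fat 4.58 (3.20 to 6.46), which missed the rule because its higher library held 46 counts. White adipocytes ranked next to smooth muscle, at 38.4, 52.4, 25.6 and 40.6 CPM, and smooth muscle was higher in 3 of 4 libraries. Hepatocytes held 86.6 CPM in MTZ-simultaneous, from 11 counts, and 18.7 CPM in MTZ-after, from 24. Endothelium held 3.22, 9.78, 6.76 and 3.28 CPM, below T or NK nuclei in every library.

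The gene most like Ednra over 53 class-by-library points was 4933431K23Rik (r = 0.784), which lies on the opposite strand of Ednra, followed by Wscd2 (0.771) and Pth1r (0.742), the parathyroid hormone receptor. The points share libraries and depth, and r is a description. Counts of 4933431K23Rik were 101, 296, 85 and 136 in the 4 libraries, against 653, 658, 568 and 625 for Ednra. The sources used here do not say whether counting used the strand, so it is not known here whether reads of this pair were told apart.

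Ednrb, which on endothelium releases nitric oxide and also clears endothelin from the blood, was highest not in endothelium but in macrophages among the 8 large classes. Macrophages held 111 CPM (550 counts, 102 to 120.4) in MTZ-simultaneous, 70.6 CPM (190 counts, 60.9 to 81.3) in MTZ-after, 13.9 CPM (203 counts, 12.1 to 16.0) in high-fat and 46.1 CPM (567 counts) in untreated. The level in T or NK nuclei was 14.5, 22.3, 15.6 and 14.1 CPM. The high-fat macrophages were thus at the T or NK level, and those of the other 3 libraries were 7.66, 3.16 and 3.26 times above it in MTZ-simultaneous, MTZ-after and untreated. The ratio of high-fat over untreated was 0.302 (0.256 to 0.355), MTZ-after over high-fat 5.07 (4.14 to 6.21) and MTZ-simultaneous over high-fat 7.96 (6.77 to 9.40), all called. The leading class itself depends on how nuclei were grouped: it was B cell without doublet removal and at Leiden resolution 1, smooth muscle with another clustering seed, and lymphatic endothelium with the stricter filter or with libraries centred. In those settings the values of the leading class are those of other nuclei.

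Within macrophages the Ednrb level was highest in 2 of the 6 clusters. Cluster 22, led by Vmn2r26, Padi4 and Alox15 and with the cavity-macrophage regulator Gata6 at 198, 159 and 177 CPM, held 276 CPM (452 counts) of Ednrb in MTZ-simultaneous, 301 CPM (70 counts) in MTZ-after and 236 CPM (16 counts) in high-fat. Its 34 untreated nuclei were too few to give a level. Within this cluster MTZ-simultaneous over high-fat was 1.17 (0.712 to 2.06) and MTZ-after over high-fat 1.27 (0.732 to 2.35), neither called. Its share of the class differed a great deal, at 32.9% of macrophages in MTZ-simultaneous, 9.28% in MTZ-after, 0.624% in high-fat and 1.03% in untreated.

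Cluster 21, led by the resident-macrophage genes Cd163 and F13a1, held 76.1 CPM (47 counts), 98.3 CPM (64 counts), 38.4 CPM (44 counts) and 231 CPM (213 counts) of Ednrb. Untreated was highest and high-fat lowest there. High-fat over untreated was 0.167 (0.118 to 0.231) and MTZ-after over high-fat 2.56 (1.72 to 3.85), both called, and MTZ-simultaneous over high-fat was 1.98 (1.29 to 3.06), not called. Alox15, a marker of cluster 22, stood at 34.0 CPM in cluster 21 of MTZ-simultaneous and at most 3.49 CPM in the other libraries, and the part of any such mixing was not tested. Cluster 8, with 4 of 15 macrophage markers enriched, held 61.4% of high-fat macrophages against 33.6% in MTZ-simultaneous and 37.2% in MTZ-after. It held 429 of the 3311 untreated ones, and its Ednrb level was 17.7, 33.3, 11.1 and 17.0 CPM in MTZ-simultaneous, MTZ-after, high-fat and untreated. Cluster 23, with 3 of 15 macrophage markers enriched, made up 3.52%, 8.93%, 3.48% and 52.6% of macrophages in the same order of libraries. It held 29.1, 37.9, 7.52 (8 counts) and 30.9 CPM of Ednrb, and its part in the macrophage ratios was not tested. With cluster 22 left out, macrophages gave 0.314 for high-fat over untreated, 3.79 for MTZ-after over high-fat and 2.29 for MTZ-simultaneous over high-fat, so the direction and the size of a call stood in each, and the last moved most.

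**Figure D4:**
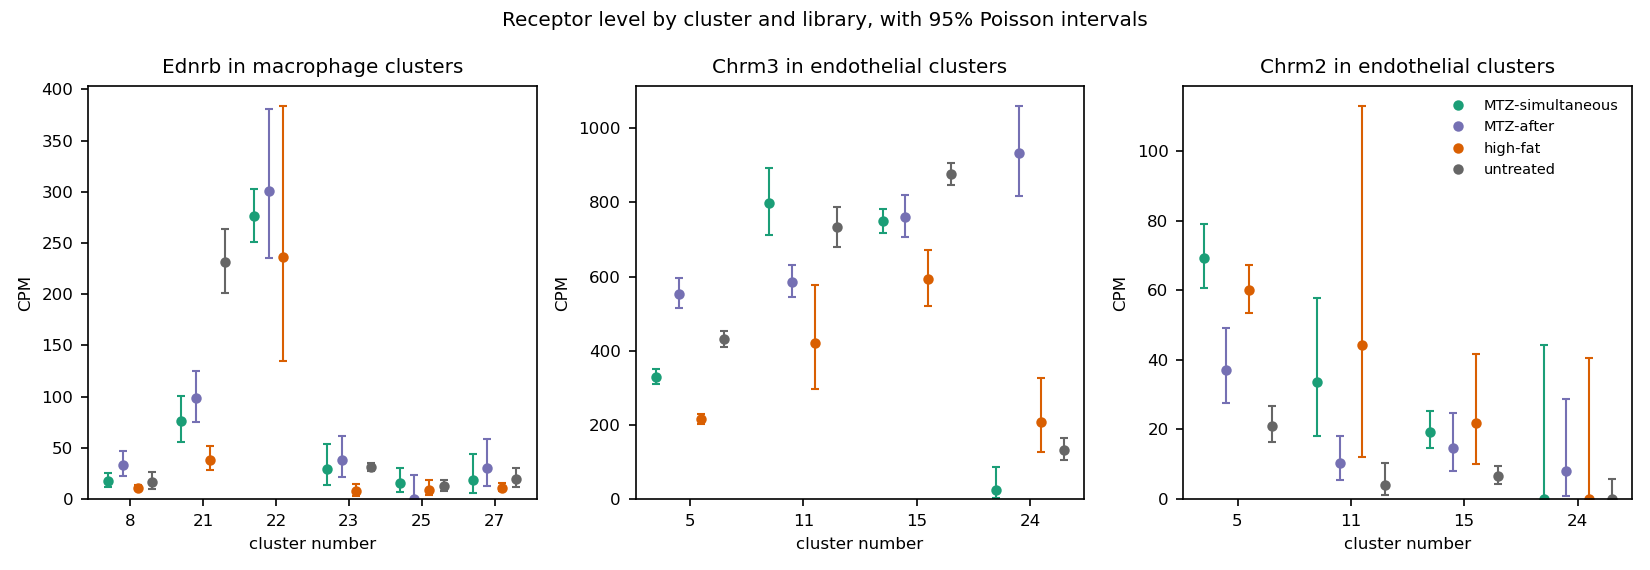
CPM of Ednrb in the macrophage clusters and of Chrm3 and Chrm2 in the endothelial clusters, by library, with exact Poisson intervals. Ednrb is at 236 to 301 CPM in cluster 22 in the 3 libraries shown and spreads from 38.4 to 231 CPM in cluster 21, while Chrm2 is highest in cluster 5.

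In endothelium Ednrb was at 17.8, 28.5, 8.37 and 24.9 CPM in MTZ-simultaneous, MTZ-after, high-fat and untreated, with high-fat lowest. High-fat was below its T or NK level of 15.6 CPM, and the other libraries were above theirs of 14.5, 22.3 and 14.1 CPM. The ratio of high-fat over untreated was 0.335, that of MTZ-after over high-fat 3.41 and that of MTZ-simultaneous over high-fat 2.13, all called. The endothelial clusters, described below with Chrm3, were in unequal mix, with cluster 5 at 85.8% of high-fat and 21.7% of untreated endothelium. Within cluster 5 the ratios were 0.564 (0.357 to 0.889) for high-fat over untreated and 1.97 (1.08 to 3.46) for MTZ-after over high-fat, neither called, and 2.18 (1.41 to 3.40) for MTZ-simultaneous over high-fat, called. Within cluster 15, where high-fat held 3 counts, high-fat over untreated was 0.798 (0.158 to 2.51), not called. In clusters 11 and 24 it was 0.335 (0.0397 to 1.26) and 0.354 (0.0940 to 0.941), both called, from 2 and 4 high-fat counts. The level was higher in cluster 24, with the capillary genes Btnl9 and Gpihbp1 among its leading genes, at 84.1, 119, 44.1 and 125 CPM, and in lymphatic endothelium, a class outside the 8 large ones. Lymphatic endothelium held 115 CPM (84 counts), 88.8 CPM (30 counts), 98.6 CPM (23 counts) and 323 CPM (352 counts), so untreated stood apart from the other 3. The genes most like Ednrb were Apold1 (r = 0.731), Mmrn1 (0.726) and Prox1 (0.715). Mmrn1 and Prox1 are lymphatic endothelial genes, Prox1 being the regulator that sets lymphatic identity.

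Agtr1a, the receptor through which angiotensin II constricts vessels and drives aldosterone release, was found both in the vessel wall and, in MTZ-after, in adrenal and nerve nuclei. It lies on chr13:30336441-30382867 on the plus strand (mm10, 46.4 kb). In smooth muscle it stood at 6.23 CPM (20 counts) in MTZ-simultaneous, 21.9 CPM (55 counts) in MTZ-after, 2.88 CPM (3 counts) in high-fat and 85.6 CPM (103 counts, 69.9 to 104) in untreated. Beside these, T or NK nuclei held 3.62, 18.6, 0 and 12.5 CPM. In untreated, smooth muscle was above T or NK nuclei beyond counting error (ratio 6.87, 3.98 to 12.7). In MTZ-simultaneous (1.72, 0.419 to 15.2) and MTZ-after (1.18, 0.595 to 2.59) it was not, and the 3 counts of high-fat are at the floor of detection. High-fat over untreated was 0.0337 (0.00683 to 0.101) and MTZ-after over high-fat 7.61 (2.47 to 38.0), both called. The call in MTZ-after goes with a T or NK level that was higher in the same library. MTZ-simultaneous over high-fat was 2.16 (0.641 to 11.4), not called.

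The untreated value came from few nuclei: the 103 counts lay in 38 of 556 smooth muscle nuclei, a share of 6.83% (4.88% to 9.26%), against 1.28%, 2.15% and 0.345% in MTZ-simultaneous, MTZ-after and high-fat. The share in T or NK nuclei was 0.531%, 1.85%, 0% of 681 nuclei (up to 0.540%) and 2.12%. With nuclei thinned to 500 UMIs the smooth muscle shares were 0.319%, 1.28%, 0.115% and 3.06%, and those of T or NK nuclei 0.531%, 1.11%, 0% and 0.816%. The summed level of 9 pericyte markers in smooth muscle was also highest in untreated, at 1214 CPM against 630.4 CPM in MTZ-simultaneous, 578 CPM in MTZ-after and 428 CPM in high-fat. Of these markers Vtn was at 0 in untreated, Higd1b at 0 in MTZ-simultaneous, and both at 0 in high-fat. The part of pericytes in the Agtr1a level was not tested. With the stricter filter on genes and mitochondrial counts the high-fat over untreated ratio was 0.287, and with libraries centred before clustering 0.236.

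In fibroblasts Agtr1a was at 16.6 CPM (46 counts), 43.0 CPM (82 counts), 12.1 CPM (18 counts) and 35.2 CPM (144 counts). The mean over libraries was 26.8 CPM, against 29.2 CPM in smooth muscle, and fibroblasts were higher in 3 of 4 libraries, so the order of these 2 classes rests on the untreated library. Fibroblast was the leading class without doublet removal, with the stricter filter, with libraries centred, with nuclei weighted equally and with nuclei thinned. There, high-fat over untreated was 0.344 (0.198 to 0.564) and MTZ-after over high-fat 3.55 (2.11 to 6.28), both called. Mesothelial nuclei, a class with 83 nuclei in high-fat, held 25.1, 21.6, 21.1 and 69.7 CPM. In the MTZ-after library adrenal cortex held 136 CPM (720 counts), neurons 231 CPM (57 counts in 88 nuclei), hepatocytes 70.1 CPM and chromaffin nuclei 53.5 CPM. Adrenal cortex thus carried 720 of the 1395 Agtr1a counts of that library, and without surrounding tissue the ratio of MTZ-after over high-fat for all kept nuclei was 7.69 in place of 17.7. The summed adrenal-cortex markers in MTZ-after stood at 149 CPM in fibroblasts, 125 CPM in smooth muscle and 162 CPM in T or NK nuclei. In high-fat they stood at 5.39, 2.88 and 7.81 CPM. The part of adrenal RNA in the Agtr1a level of these classes was not tested. The near-identical gene Agtr1b was at 36.8, 53.4, 44.2 and 31.6 CPM in smooth muscle and 193 CPM in adrenal cortex. The sources used here do not say how reads that match both genes were treated, so each level of the pair is uncertain.

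Adra1b, a Gq-coupled receptor for noradrenaline, was a fibroblast transcript in the aortic classes. It lies on chr11:43774606-43901210 on the minus strand (127 kb). Fibroblasts held 15.9 CPM (44 counts, 11.5 to 21.3) in MTZ-simultaneous, 23.1 CPM (44 counts, 16.8 to 31.0) in MTZ-after, 17.5 CPM (26 counts, 11.4 to 25.7) in high-fat and 43.3 CPM (177 counts, 37.2 to 50.2) in untreated. In T or NK nuclei it stood at 0, 9.31, 3.90 and 2.49 CPM. Smooth muscle held 9.35, 8.77, 8.65 and 10.8 CPM, below fibroblasts in 4 of 4 libraries with ranges that did not overlap. Over the whole class untreated stood apart and the other 3 libraries overlapped in their intervals. High-fat over untreated was 0.405 (0.257 to 0.613), called, while MTZ-after over high-fat was 1.32 (0.794 to 2.23) and MTZ-simultaneous over high-fat 0.906 (0.546 to 1.53).

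The fibroblast class held 2 clusters in unequal mix. Cluster 4, led by Opcml and Gfpt2, made up 199 of 1531 fibroblasts in MTZ-simultaneous and 3.95%, 3.70% and 48.0% of them in MTZ-after, high-fat and untreated, and carried 43.6 CPM (30 counts) of Adra1b in MTZ-simultaneous and 53.8 CPM (136 counts) in untreated. Cluster 3, led by Hhip and C7, held 6.72 CPM in MTZ-simultaneous, 23.0 CPM (16.5 to 31.3) in MTZ-after, 16.6 CPM in high-fat and 26.3 CPM (18.8 to 35.6) in untreated, so untreated did not stand apart there. Without cluster 4 the ratio of high-fat over untreated was 0.632 and no longer a call. Hepatocytes, which use Adra1b to mobilise glucose, held 70.9 CPM (9 counts) in MTZ-simultaneous and 81.0 CPM (104 counts) in MTZ-after. The genes most like Adra1b were Hhip (r = 0.795), a hedgehog-binding protein, Aox3 (0.775) and Aass (0.726).

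Adra1d, the alpha-1 receptor best known for contraction of the rodent aorta, was close to the limit of these libraries. Its totals were 35, 46, 33 and 55 counts over all kept nuclei, or 0.989, 1.59, 0.723 and 0.862 CPM. Smooth muscle held 8, 6, 3 and 6 of these counts, at 2.49, 2.39, 2.88 and 4.99 CPM, and T or NK nuclei held 3.62, 5.59, 0 and 0 CPM. The levels overlapped between libraries and between these classes, and a difference was not detectable at this depth: high-fat over untreated was 0.578, and its leading class changed to brown adipocyte or T or NK nuclei under other settings. The gene most like it was Des, the intermediate filament of muscle (r = 0.59), followed by Gm13889 (0.564) and 1190005I06Rik (0.563).

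Chrm3, the muscarinic receptor through which acetylcholine makes endothelium release nitric oxide, followed endothelial genes closely. It spans chr13:9875486-10360847 on the minus strand (485 kb). Endothelium held 536 CPM (3493 counts, 518 to 554) in MTZ-simultaneous, 642 CPM (2429 counts, 617 to 668) in MTZ-after, 247 CPM (1387 counts, 234 to 260.2) in high-fat and 645 CPM (5896 counts, 629 to 662) in untreated. High-fat stood apart below the other 3. Here high-fat over untreated was 0.383 (0.361 to 0.406), MTZ-after over high-fat 2.60 (2.43 to 2.78) and MTZ-simultaneous over high-fat 2.17 (2.04 to 2.31), all called. T or NK nuclei held 244, 302, 217 and 185 CPM, so the high-fat endothelium was 1.14 times that level (0.967 to 1.34), against 2.19 in MTZ-simultaneous, 2.13 in MTZ-after and 3.48 in untreated.

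The share of endothelial nuclei with a Chrm3 UMI was 40.2%, 40.4%, 25.5% and 40.3% in MTZ-simultaneous, MTZ-after, high-fat and untreated, against 18.0%, 21.5%, 16.2% and 18.1% of T or NK nuclei. The median depths were 1991, 893, 1328 and 1992 UMIs in endothelium and 1065, 778.5, 898 and 1383 in T or NK nuclei. Thinned to 500 UMIs per nucleus, the endothelial shares were 17.8%, 25.3%, 10.3% and 19.1%. High-fat remained the lowest at equal depth.

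The endothelial clusters differed in Chrm3, and the libraries differed in their mix. Cluster 5, with Sele and Dkk2 among its leading genes, made up 41.8% of endothelium in MTZ-simultaneous, 24.0% in MTZ-after, 85.8% in high-fat and 21.7% in untreated. It held 329, 554, 216 and 431 CPM of Chrm3, less than clusters 11 and 15 in every library. Cluster 15, led by Unc5d and Lrrc3b, made up 46.8%, 28.6%, 9.50% and 53.7% and held 749, 761, 593 and 876 CPM. Within cluster 5, high-fat over untreated was 0.501 (0.463 to 0.542) and MTZ-simultaneous over high-fat 1.52 (1.40 to 1.66), neither called, and MTZ-after over high-fat 2.57 (2.33 to 2.82), called. Within cluster 15 the 3 ratios were 0.677 for high-fat over untreated, 1.28 for MTZ-after over high-fat and 1.26 for MTZ-simultaneous over high-fat. Within cluster 11 they were 0.573, 1.40 and 1.90 in the same order, none called. Cluster 24 differed: it held 24.0 CPM (2 counts) in MTZ-simultaneous, 934 CPM in MTZ-after, 209 CPM (19 counts) in high-fat and 132 CPM (85 counts) in untreated. There high-fat was above untreated (1.58, 0.907 to 2.62) and MTZ-simultaneous below high-fat (0.115, 0.0130 to 0.476), neither called, and MTZ-after over high-fat was 4.46 (2.79 to 7.54), called. The summed level of the 11 endothelial markers in the class was 7998, 7636, 6443 and 8909 CPM, lowest in high-fat as well, and its part in the Chrm3 level was not tested.

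Lymphatic endothelium held more Chrm3 than the endothelial class in each library, at 715, 1006, 335 and 932 CPM, again with high-fat lowest. The genes most like Chrm3 were Emcn (r = 0.907), a sialomucin of endothelium, Ldb2 (0.905) and Sema6a (0.872). The gene overlaps Gm26861 and Gm47406 on the other strand, and Gm26861 had 25 to 37 counts per library against 7462 to 13982 for Chrm3.

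Chrm2, which couples to Gi and is best known for slowing the heart and for damping release from nerve endings, went the other way. It lies on chr6:36388084-36528414 on the plus strand (140.3 kb). Endothelium held 44.6 CPM (291 counts, 39.6 to 50.1) in MTZ-simultaneous, 20.9 CPM (79 counts, 16.5 to 26.0) in MTZ-after, 56.1 CPM (315 counts) in high-fat and 11.2 CPM (102 counts, 9.10 to 13.5) in untreated. High-fat was highest, MTZ-simultaneous next, and untreated lowest. For Chrm2, high-fat over untreated was 5.03 (4.01 to 6.35), called higher, MTZ-after over high-fat 0.372 (0.287 to 0.478), called lower, and MTZ-simultaneous over high-fat 0.796 (0.676 to 0.936), not called. T or NK nuclei showed the same order of high-fat above untreated, at 12.7, 5.59, 26.0 and 6.65 CPM, with a ratio of 3.91 (1.65 to 10.3) from 20 and 8 counts. Macrophages were called as well, at 6.52 (4.55 to 9.62). The endothelial level was 3.53, 3.74, 2.15 and 1.68 times that of T or NK nuclei, the last with an interval of 0.820 to 3.99 in untreated.

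Cluster 5 held the most Chrm2, at 69.3, 37.2, 60.1 and 21.1 CPM in MTZ-simultaneous, MTZ-after, high-fat and untreated, and it was also the cluster that made up 85.8% of high-fat endothelium. Within it high-fat over untreated was 2.84 (2.19 to 3.74), still called, and MTZ-after over high-fat 0.618 (0.449 to 0.836), no longer called. Of the endothelial Chrm2 counts, 302 of 315 in high-fat, 71 of 102 in untreated and 50 of 79 in MTZ-after lay in cluster 5. Without cluster 5 the class gave 4.09 for high-fat over untreated and 0.542 for MTZ-after over high-fat. The counts left in each of these libraries were below the minimum of the rule. Neither ratio could be called there, whatever its size. Over all kept nuclei Chrm2 was at 22.7, 21.0, 23.5 and 5.06 CPM. In MTZ-after a cluster of 88 neurons carried 197 of its 610 counts, at 797 CPM, with a UMI in 61.4% of the nuclei. Those neurons held the noradrenaline transporter Slc6a2 at 765 CPM and Dbh, which makes noradrenaline, at 344 CPM, and had 0 counts of Chat and Slc18a3, which make and package acetylcholine. The genes most like Chrm2 were Stmn2 (r = 0.779), a neuronal microtubule gene, Nfasc (0.744) and Pde9a (0.725).

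Npr1, the guanylate cyclase receptor of atrial and B-type natriuretic peptides, differed little between the libraries. It lies on chr3:90450591-90465866 on the minus strand (15.3 kb). Endothelium held 126 CPM (819 counts, 117 to 134), 98.6 CPM (373 counts, 88.8 to 109), 102 CPM (573 counts, 93.8 to 111) and 141 CPM (1286 counts, 133 to 149) in MTZ-simultaneous, MTZ-after, high-fat and untreated. Smooth muscle held 90.7, 84.9, 90.3 and 116 CPM and T or NK nuclei 65.1, 76.3, 71.6 and 63.2 CPM. Endothelium was 1.93, 1.29, 1.43 and 2.23 times the T or NK level, and in MTZ-after the interval of 0.934 to 1.83 did not exclude an equal level. The ratios were 0.725 (0.656 to 0.801) for high-fat over untreated, 0.967 (0.846 to 1.10) for MTZ-after over high-fat and 1.23 (1.11 to 1.37) for MTZ-simultaneous over high-fat, none called, and the intervals leave out a 2-fold difference as far as counting error goes. Cluster 11, led by Adarb2 and Lhx6, held 189, 114, 133 and 219 CPM. The genes most like Npr1 were Esam (r = 0.75), an endothelial adhesion molecule, Nos1ap (0.712) and Limch1 (0.697).

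Npr3, the clearance receptor that takes up natriuretic peptides, was an adipocyte transcript. It lies on chr15:11839896-11907287 on the minus strand (67.4 kb). White adipocytes held 217 CPM (379 counts, 196 to 240.4) in MTZ-simultaneous, 341 CPM (221 counts, 297 to 389) in MTZ-after, 87.7 CPM (264 counts, 77.4 to 98.9) in high-fat and 143 CPM (311 counts, 128 to 160.2) in untreated. MTZ-after was highest and high-fat lowest, with intervals that did not overlap. MTZ-after over high-fat was 3.89 (3.24 to 4.67) and MTZ-simultaneous over high-fat 2.48 (2.11 to 2.91), both called higher, and high-fat over untreated was 0.611 (0.517 to 0.723), not called. That last ratio was called lower under 3 other settings, at 0.378 without doublet removal, 0.421 with the stricter filter and 0.425 with another clustering seed. The T or NK level was 32.5, 46.5, 36.4 and 51.5 CPM.

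Brown adipocytes held Npr3 at 168, 124, 163 and 209 CPM, with MTZ-after lowest. The class held 2 clusters in unequal mix. Cluster 17, with the muscle and brown-fat gene Perm1 among its leading genes, made up 16.4%, 7.73%, 7.90% and 56.2% of brown adipocytes in MTZ-simultaneous, MTZ-after, high-fat and untreated. It stood at 275, 204, 329 and 228 CPM and cluster 1 at 113, 112, 133 and 107 CPM, so untreated, highest over the class, was not highest in either cluster. Brown adipocytes made up 19.6% of untreated nuclei and 2.14% of high-fat nuclei, and over all kept nuclei Npr3 was at 63.4, 69.3, 39.2 and 106 CPM. The summed level of the brown-adipocyte markers in white adipocytes was 667, 353, 347 and 507 CPM and that of the white-adipocyte markers 4484, 3979.6, 3176 and 6511 CPM, and their part in the Npr3 level was not tested. The genes most like Npr3 were Ganc (r = 0.851), Nrg4 (0.842), a brown-fat growth factor, and Acsl1 (0.831), which activates fatty acids.

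Transcripts of the genes that encode peptide ligands of these receptors were mostly scarce. Agt and Ren1, the angiotensin precursor and the enzyme that cleaves it, had 4 and 2 counts over all libraries, and the natriuretic peptide genes Nppa, Nppb and Nppc had 2, 3 and 14. Edn1 was the exception, with a mean of 329 CPM in endothelium and 272, 242, 455 and 347 CPM in MTZ-simultaneous, MTZ-after, high-fat and untreated, none of the 3 comparisons there being called. Edn1 was called higher in high-fat against untreated in smooth muscle (179 against 78.2 CPM, ratio 2.29, 1.77 to 2.96), in macrophages (2.86, 2.62 to 3.13) and in white adipocytes (3.06, 2.53 to 3.73). Against high-fat, Edn1 was called lower in macrophages and white adipocytes of MTZ-simultaneous and in white adipocytes of MTZ-after. T or NK nuclei, which are not known to make it, held 110.3, 80.1, 217 and 78.1 CPM, so the smooth muscle level of high-fat was below the T or NK level of that library. The summed endothelial markers were also higher in high-fat than in untreated. They stood at 2506 against 1579 CPM in macrophages and at 2736 against 1549 CPM in white adipocytes, and their part in the Edn1 calls was not tested. Of the 5 genes for endothelin ligands and converting enzymes, 2 could be tested in smooth muscle. In high-fat against untreated 1 of these 2 was called there, 2 of 2 in macrophages and 1 of 2 in white adipocytes, all higher. In fibroblasts and endothelium 0 of 2 were called.

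Several genes of cyclic GMP signalling were lower in high-fat smooth muscle. Of 8 genes of cyclic GMP signalling, all 8 were tested in smooth muscle and 4 were called lower in high-fat against untreated, with 0 higher. Their median log2 ratio was -1.02, against 0.07 over the 5066 genes tested. The summed smooth muscle markers given above for Ednra were also lower in high-fat (4345 CPM) than in untreated (8494 CPM), and the summed macrophage markers were higher in high-fat (2153 CPM) than in untreated (1075 CPM). The part of these in the cyclic GMP genes was not tested. The 4 called lower were Gucy1a1 and Gucy1b1, the subunits of soluble guanylate cyclase (0.381 and 0.305), Pde5a, which degrades cyclic GMP (0.446), and Mrvi1, the substrate of cyclic GMP-dependent kinase on the calcium store (0.373). Pde5a, and Grk2 below, were named after their values were seen. Gucy1a1 stood at 152, 115, 80.7 and 212 CPM in MTZ-simultaneous, MTZ-after, high-fat and untreated, and at 39.8, 39.1, 18.2 and 12.5 CPM in T or NK nuclei. In MTZ-after against high-fat 0 of the 8 were called in smooth muscle (median log2 ratio 0.25, against 0.05 over all genes tested), and in MTZ-simultaneous against high-fat 1 was called higher, Mrvi1 (2.13, 1.79 to 2.54), with a median of 0.42 against 0.08. Other classes also gave calls, all of them higher. In MTZ-after against high-fat they were 3 of 8 in fibroblasts, 2 of 8 in endothelium and 1 of 7 in macrophages. In high-fat against untreated they were 1 of 8 in endothelium and 3 of 6 in white adipocytes. In MTZ-simultaneous against high-fat 1 of 8 was called in macrophages. The shares over all genes of these classes are given above.

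**Figure D5:**
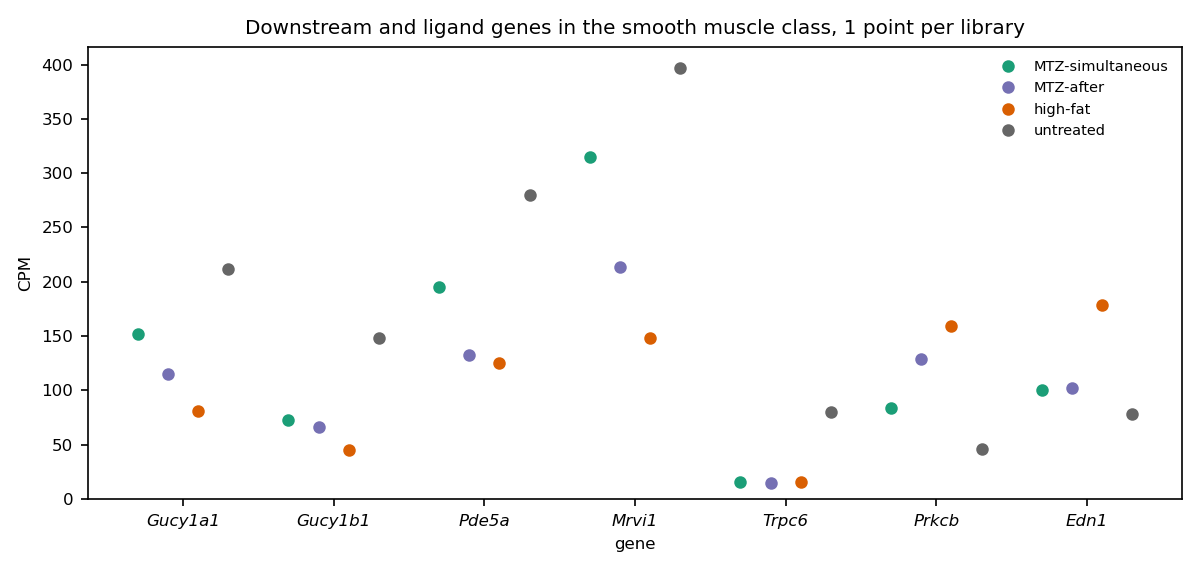
CPM of 7 pathway genes in smooth muscle, 1 point per library. Gucy1a1, Gucy1b1, Pde5a and Mrvi1 are highest in untreated and lowest in high-fat, and Trpc6 stands apart in untreated at 80.6 CPM.

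Of 25 genes that act below Gq and G12/13, 20 were tested in smooth muscle in high-fat against untreated, and 2 were called higher and 2 lower, with a median log2 ratio of 0.10 against 0.07. Trpc6, a calcium channel that opens downstream of Gq, was among the lower ones, at 15.6, 14.4, 15.4 and 80.6 CPM in MTZ-simultaneous, MTZ-after, high-fat and untreated (high-fat over untreated 0.191, 0.105 to 0.325). Its untreated level stood apart from the other 3 libraries, as that of Agtr1a did in the same class. The higher ones were the kinase Prkcb (3.47, 2.54 to 4.79), at 83.8, 129, 159 and 45.7 CPM, and the receptor kinase Grk2 (2.01). Prkcb is also a leukocyte gene, at 296, 294, 289 and 338 CPM in T or NK nuclei, and the summed macrophage markers in smooth muscle were 1201, 1177, 2153 and 1075 CPM, so the part of leukocyte RNA in its level was not tested.

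Of 14 other receptors of the same ligands, 2 to 5 could be tested per comparison in the 4 aortic classes. In macrophages 3 of 5 were called lower in high-fat against untreated, among them Adrb3 (0.279) and Adra1a (0.379), but Adrb3 and Adra1a led in adipocytes, where Adrb3 averaged 437 CPM in the white and Adra1a 529 CPM in the brown class. In endothelium Adra2a, a Gi-coupled alpha-2 receptor, was at 17.5, 10.6, 3.74 and 18.4 CPM in MTZ-simultaneous, MTZ-after, high-fat and untreated. It was called lower in high-fat against untreated (0.203, 0.123 to 0.321) and higher in MTZ-simultaneous against high-fat (4.68, 2.92 to 7.85). Its level in T or NK nuclei was 3.62, 1.86, 6.51 and 1.66 CPM. Npr2, the receptor of C-type natriuretic peptide, averaged 31.2 CPM in smooth muscle.

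The enzymes that make or break down the ligands were called in some classes. Of 5 genes for the angiotensin substrate and enzymes, Ace, which makes angiotensin II, averaged 107 CPM in endothelium, and Enpep, which cleaves it, was called lower in fibroblasts of high-fat against untreated (8.09 against 29.4 CPM, 0.275, 0.138 to 0.499). Enpep was also called lower in macrophages (0.452) and white adipocytes (0.183) of high-fat against untreated, where Ace was called higher (2.01 in macrophages and 2.29 in white adipocytes). The summed endothelial markers, given above for Edn1, were also higher in high-fat in both classes, and their part in the Ace level was not tested. Of 6 natriuretic ligand and enzyme genes, Mme, the protease that degrades the peptides, was called lower in macrophages of high-fat against untreated (0.457, 0.399 to 0.522), and 0 were called in smooth muscle, fibroblasts or endothelium in any comparison. Of 12 genes for synthesis and clearance of catecholamines and acetylcholine, 2 to 4 could be tested per comparison in the 4 aortic classes. The monoamine oxidases gave both calls among them: Maoa was higher in smooth muscle of MTZ-after against high-fat (31.1 against 15.4 CPM, 2.02, 1.17 to 3.71), a library in which 1638 chromaffin nuclei were found, and Maob was lower in macrophages of high-fat against untreated (0.465).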

How the data were processed

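Nuclei from mouse aortic tissue were sequenced in 4 libraries with the 10x 3' kit, version 3.1, as paired ends of 150 bases, per the labels' protocols. The deposited matrices hold whole-number UMI counts per gene and barcode, made with Cell Ranger 7.0.1 per the file headers, and STAR and mm10 appear in the submitters' processing notes. The sources used here do not say whether intronic reads or the strand were used in counting. Total UMIs were 37962370, 31517272, 50358151 and 69201159 in MTZ-simultaneous, MTZ-after, high-fat and untreated.

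Nuclei were kept with at least 300 genes and at most 10% mitochondrial counts (74, 23, 98 and 74 failed), and those with the highest 8% of Scrublet scores in each library were removed (1541, 2247, 3041 and 1787). The clustering used 2000 variable genes without the receptor and pathway genes, 30 principal components, 20 neighbours and Leiden resolution 2, and gave 36 clusters. A cluster could take the name of 1 of 28 marker lists when at least 3 of its markers were enriched at least 2-fold and above a minimum count. It stayed unnamed with under 50 nuclei, weak mean enrichment, or low UMIs without a marker among its leading genes. Markers or leading genes of an unrelated list also left a cluster unnamed, and 27 clusters were named.

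CPM came from UMI counts summed over the nuclei of a class in each library. Intervals, all at 95%, are exact Poisson (levels), Clopper-Pearson (shares) or exact conditional (ratios). UMIs remove PCR copies, and the intervals cover counting error only. Where a library held 0 counts, a floor of 3 counts in that library was used. Log2 ratios of lists used a pseudocount of 1 CPM, over genes with at least 50 counts in either library. The call rule was tested on simulated data. With 1 library per group, no test between groups was made.

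The members and gene lists were chosen with earlier results of these data known. Genes named beyond the 9 members were those of each pathway list called in a compared class, at most 3 per list and comparison by the interval bound farthest from 1, the ligand genes, and the 3 genes most like each member by Pearson r of log2(CPM + 1) among genes with at least 500 counts. Values of 1 gene of the lists are not reported here. Gene positions come from GENCODE vM21 (32158 of 32285 identifiers found, 99.6%) and promoter sequences from RefSeq. Alternatives were doublet removal, stricter filters (500 genes, 5% mitochondrial), another seed, resolution 1, centred libraries, equal weight of nuclei, thinning to 500 UMIs, TMM factors, the minimum count and surrounding tissue left out. Python 3.11.15 with scanpy 1.11.5, scipy 1.17.1 and pandas 2.3.3, and R 4.3.3 with edgeR 4.0.16 for TMM factors only, were used.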

Additional observations from a re-analysis of the deposited data

How the results depend on the processing

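No paired analysis was possible because each group had 1 library. Counts of called receptor genes in the leading classes moved by over 1.5 times in 6 cases. Genes higher in MTZ-simultaneous against high-fat numbered 1 without doublet removal, 1 with at least 500 genes and at most 5% mitochondrial counts and 1 at Leiden resolution 1, against 3 as reported. Genes lower in high-fat against untreated numbered 2 at Leiden resolution 1, 3 with libraries centred and 2 with nuclei thinned to 500 UMIs, against 5. With libraries centred, 4 of the 9 genes kept their leading class. Over all kept nuclei, every count under the 8 alternatives run was within 1.5 times the reported one. Of 486 values of single receptor genes under these alternatives 405 were within counting error of the reported value or on the same side of the rule, 81 moved and 0 turned a call round. Of 220 that were called as reported, 196 were called in the same direction.

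TMM factors shifted the log2 ratio of all genes in high-fat against untreated by -0.12 in endothelium, -0.15 in fibroblasts, -0.11 in smooth muscle and -0.24 in white adipocytes, and over all kept nuclei by -0.14, -0.13 and -0.12 in the 3 comparisons. Counts of calls in the leading classes were the same with them. For Ednrb the ratio of MTZ-simultaneous over high-fat in its leading class was 2.33 without doublet removal, 1.61 with the stricter filter, 1.94 with another seed and 1.85 at resolution 1, none of them called, where that class was not macrophage. The Chrm3 ratio in the same comparison was 1.89, 1.94 and 1.95 without doublet removal, with the stricter filter and at resolution 1, just under the rule. The Npr3 ratio was 1.98 with libraries centred and 1.71 with nuclei thinned. The cause of these moves was not tested. The splits of macrophages, endothelium and fibroblasts by cluster were chosen after seeing the data. Values with fewer than 50 counts, all of Adra1d among them, are limited by depth.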
